A study of Mus musculus with 23 samples.

Results

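Of the 24411 gene symbols counted, 8 are described here, chosen by name: the glutamate transporters Slc1a1, Slc1a2 and Slc1a3, their relative Slc1a4, the enzymes Glul and Glud1, and the glutamine transporters Slc38a1 and Slc38a3. All 8 passed the filter on low counts in every comparison. Counts came from 23 libraries of cortical astrocytes, which had been taken from dissociated cortex of male mice at postnatal day 70 on magnetic beads carrying an antibody to the surface antigen ACSA-2. Both alleles of Aldh7a1 were floxed in all mice, and 4-hydroxytamoxifen was given to all at postnatal days 3 to 4. The cKOAstro mice also carried the tamoxifen-inducible recombinase CreER at 1 allele of Slc1a3, and the ConAstro mice did not. From postnatal day 21 mice were fed a control diet (4 ConAstro and 7 cKOAstro libraries) or a diet with sulforaphane (SFN), a compound known to activate the transcription factor NRF2 (5 SFN-fed ConAstro and 7 SFN-fed cKOAstro libraries). CreER was thus present in every cKOAstro mouse and in no ConAstro mouse, so deletion of Aldh7a1 and the modified Slc1a3 allele cannot be told apart in these comparisons. The question asked of the data was whether the other transporters or glutamine synthesis were higher where Slc1a3 carried CreER.

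Glutamate released at synapses is cleared mainly by astrocytes, through the sodium-coupled transporters encoded by Slc1a2 (GLT-1) and Slc1a3 (GLAST). Inside the astrocyte glutamate is turned into glutamine by glutamine synthetase (Glul) or oxidised through glutamate dehydrogenase (Glud1). Glutamine then leaves through the transporter encoded by Slc38a3 and is taken up by neurons, partly through that of Slc38a1, to be made into transmitter again.

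Libraries held 46890715 to 391701247 counts, and no pair of a group was alike within counting noise (lowest chi-square per degree of freedom 42.4). In the study's methods each sample is an animal, so p-values measure the spread between mice, with 1 library each. Aldh7a1, the floxed gene, was at 214 ± 5.89 CPM (counts normalized to library size, mean ± SD, n = 4) in ConAstro and at 59.2 ± 11.7 CPM (n = 7) in cKOAstro. A pair of libraries went against their labels: the library labelled SFN-fed ConAstro replicate 1 had 55.7 CPM of Aldh7a1, and 222 CPM were counted in that labelled SFN-fed cKOAstro replicate 2. The main values that involve the SFN diet are therefore given both as labelled and without these 2 libraries. All 8 astrocyte markers (Aldh1l1, Aqp4, Gfap, S100b, Gja1, Aldoc, Atp1b2 and Slc4a4) were found in every library, with a summed level of 8032 to 12596 CPM. The 6 oligodendrocyte markers, among them Mbp, were also found in every library and summed to 20433 to 52949 CPM. No marker of any of the 9 cell type lists was at 0 in any library. In sorted bulk samples fewer cells of a type and less RNA per cell cannot be told apart.

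Promoter sequences of 6 of the 8 genes were matched in RefSeq (GRCm38.p6), and those of the gene that carried CreER and of the glutamine-making enzyme are shown because the diet comparison bears on them. Each covers the 250 bases before the annotated start, 5′ to 3′ on the gene's strand. The Slc1a3 window lies on the minus strand at chr15:8710808-8711057 and the Glul window on the plus strand at chr1:153899679-153899928.
Slc1a3: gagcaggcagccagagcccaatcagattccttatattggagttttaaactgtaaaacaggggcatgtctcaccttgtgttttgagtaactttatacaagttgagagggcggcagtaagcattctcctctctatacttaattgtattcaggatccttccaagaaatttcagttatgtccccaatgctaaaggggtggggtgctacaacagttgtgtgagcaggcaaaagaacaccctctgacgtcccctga
Glul: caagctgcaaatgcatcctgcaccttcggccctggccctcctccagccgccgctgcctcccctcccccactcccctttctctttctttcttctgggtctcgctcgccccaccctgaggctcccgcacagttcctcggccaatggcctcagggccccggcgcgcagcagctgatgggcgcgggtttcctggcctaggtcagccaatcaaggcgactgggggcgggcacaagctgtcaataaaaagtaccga
The core of the antioxidant response element bound by NRF2, searched as TGACNNNGC on both strands, was in 0 of the 6 windows, so no base stands in capitals. It was in 10.2% of the 32851 windows of the same length in RefSeq. Absence of these letters from the windows says nothing about binding elsewhere.

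Levels of the genes were compared after division by exon length (CPM per kilobase of exon, GENCODE M21), and fell in 1 order in 23 of 23 libraries. Glul was highest, at 2381 ± 302 CPM per kilobase (SD, n = 23). Slc1a2 followed at 800 ± 163 and Slc1a3 at 371 ± 151 CPM per kilobase. Glud1 stood at 186 ± 24.5, Slc38a3 at 122 ± 14.3 and Slc1a4 at 103 ± 14.4 CPM per kilobase. Slc38a1, at 6.28 ± 2.43, and Slc1a1, at 1.5 ± 0.45 CPM per kilobase, were the lowest. Across libraries the ranges of Slc1a2 and Slc1a3, of Slc1a3 and Glud1, and of Slc38a3 and Slc1a4 overlapped. These neighbours were thus ordered within each library but not by their spread over all libraries, which pools the genotypes. In ConAstro alone Slc1a3 ran from 464 to 583 and Glud1 from 158 to 199 CPM per kilobase. In cKOAstro they ran from 212 to 336 and from 156 to 234 CPM per kilobase. The least read of the 8, Slc1a1, still had at least 452 counts in each library.

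**Figure D1:**
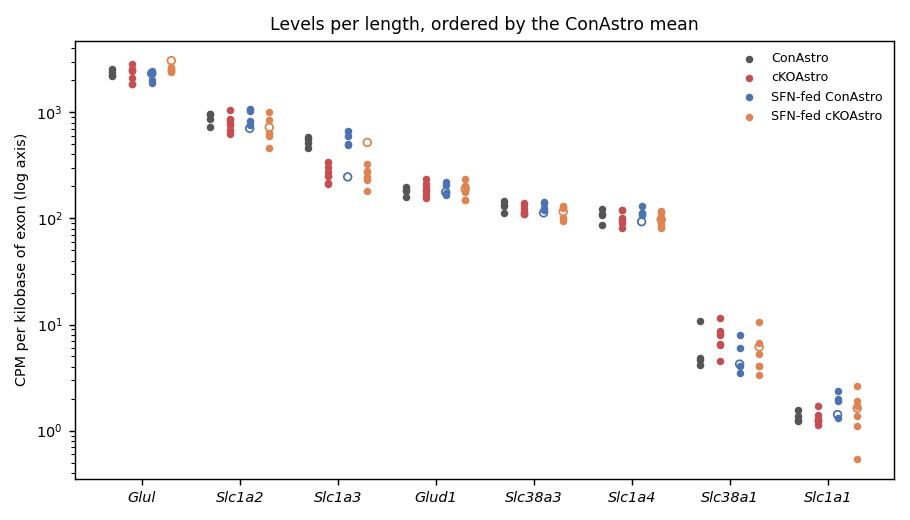
Level of each gene in CPM per kilobase of exon on a log axis, 1 point per library, coloured by group, with open circles for the 2 libraries that went against their labels. Glul stands above 1836 CPM per kilobase in every library and Slc1a1 below 2.67.

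On the control diet, Slc1a3 was the member that differed between genotypes. The gene lies at chr15:8634124-8710764 (GRCm38) and encodes GLAST. The ConAstro libraries had 4817, 4335, 3964 and 4979 CPM of Slc1a3, and the cKOAstro libraries ran from 1809 to 2870 CPM with a median of 2162. The groups did not overlap, which held for 0.494% of the 17406 genes tested. Slc1a3 fell by 1.02 ± 0.13 on the log2 scale (SE, 95% interval -1.29 to -0.74), with an adjusted p of 0.0168 by edgeR's quasi-likelihood test with Benjamini-Hochberg adjustment. It was 1 of 8 members called, against 0.023% of all genes tested (4 genes). The level in cKOAstro was thus 0.49 of that in ConAstro. The astrocyte marker sum overlapped between these groups, from 9435 to 11320 CPM in ConAstro and from 8394 to 12596 CPM in cKOAstro. The size of the Slc1a3 difference stayed between -1.08 and -0.96 when each library was left out in turn, but the adjusted p passed 0.05 without ConAstro replicate 1 (0.142), 2 (0.0792) or 4 (0.143) or cKOAstro replicate 2 (0.0642), 4 (0.077) or 5 (0.058). All 4 ConAstro libraries had numbered names, while 2 of the cKOAstro libraries were named Astro. Among the 9 libraries with numbered names alone, the log2 fold change was -0.99 with an adjusted p of 0.367 (edgeR). The leading number of these names was never shared between ConAstro and cKOAstro, so this subset does not match the genotypes on it. Library totals did not overlap either, at 74771451 to 84049525 counts in ConAstro and 107847897 to 391701247 in cKOAstro. The part of naming and of depth in the Slc1a3 difference was not tested.

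**Figure D2:**
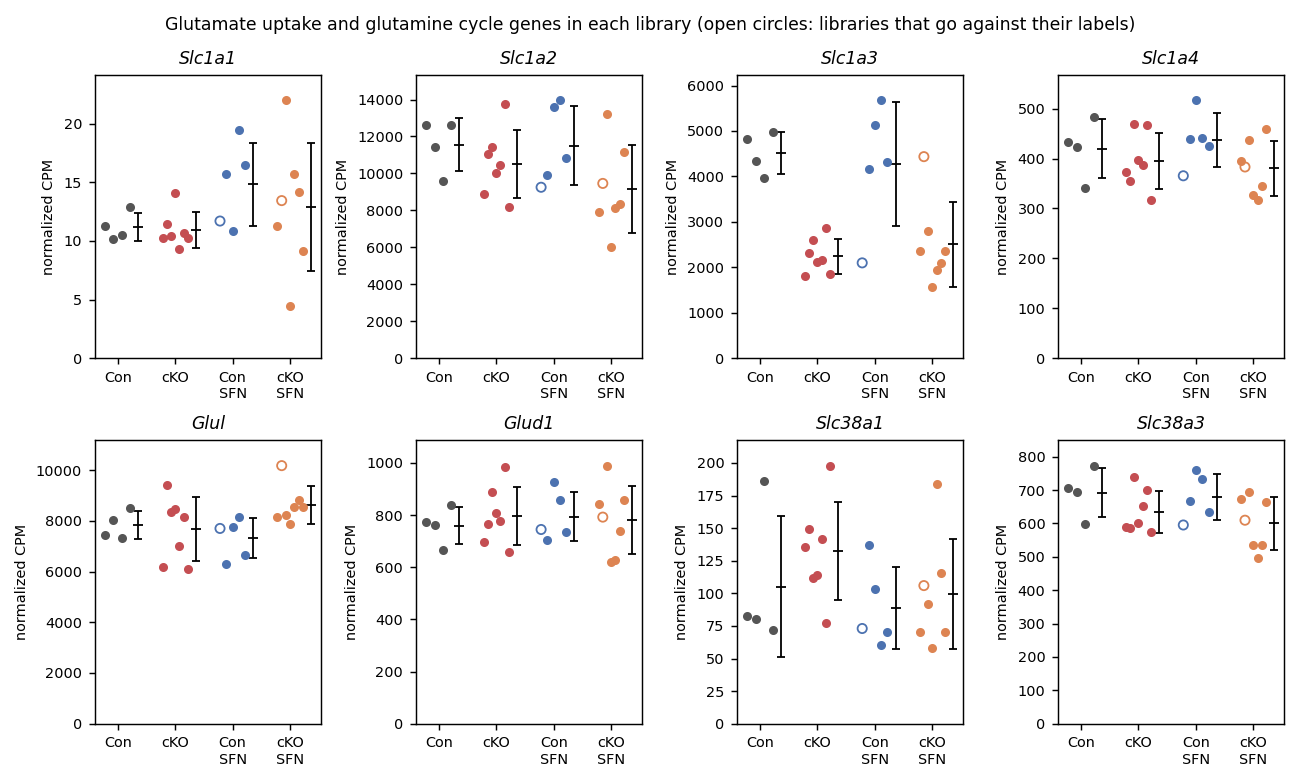
Normalized CPM of each gene (vertical axes, from 0) in every library of the 4 groups, with the mean and SD in black and open circles for the 2 libraries that went against their labels. In the Slc1a3 panel the cKOAstro libraries, at 1809 to 2870 CPM, lie below all ConAstro libraries, at 3964 to 4979 CPM.

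The other 7 genes were not called on the control diet, and each overlapped between the genotypes. Slc1a2, the main glutamate transporter of the forebrain, had 12628, 11407, 9576 and 12632 CPM in ConAstro, and 8170 to 13782 CPM (median 10450) in cKOAstro. Its log2 fold change was -0.14 ± 0.14 (95% interval -0.45 to 0.17, adjusted p = 0.981, edgeR), so a level in cKOAstro above 1.12 times that of ConAstro lay outside the interval. Slc1a1, a transporter known mainly from neurons, was at 11.2 ± 1.21 CPM (n = 4) and 10.9 ± 1.54 CPM (n = 7), a log2 fold change of -0.044 with an interval up to 0.20. For Slc1a1, 2631 of 8257 exonic bases are shared with 4430402I18Rik on the opposite strand, and since it is not stated whether counting used the strand, reads of the pair may be mixed. Slc1a4, an exchanger of neutral amino acids such as serine and alanine, had a log2 fold change of -0.094 ± 0.12 (95% interval -0.35 to 0.16).

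Glutamine synthesis showed no detectable difference either. Glul had 7447, 8041, 7313 and 8494 CPM in ConAstro, and 6102 to 9398 CPM (median 8157) in cKOAstro. The cKOAstro libraries stood on both sides of the ConAstro range, and the log2 fold change was -0.036 ± 0.13 (95% interval -0.31 to 0.24, adjusted p = 0.982, edgeR). The upper end of that interval corresponds to 1.18 times the ConAstro level. Glud1, at 760 ± 70.4 CPM (n = 4) and 797 ± 111 CPM (n = 7), had a log2 fold change of 0.063 ± 0.11. Slc38a3, the glutamine exporter, was at 692 ± 72.6 CPM (n = 4) and 634 ± 64.1 CPM (n = 7), with a log2 fold change of -0.13 ± 0.089 (95% interval -0.33 to 0.062). Over the 8 genes the median log2 fold change was -0.069, beside -0.0072 over all genes tested, and 6 of the 8 were below 0.

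Slc38a1 had the widest interval of the 8 on this diet. Its ConAstro libraries stood at 82.8, 80.1, 186 and 71.8 CPM, and its cKOAstro libraries ran from 77.5 to 198 CPM with a median of 136. A single ConAstro library, replicate 3, was far above the other ConAstro libraries and inside the upper part of the cKOAstro range. The log2 fold change was 0.33 ± 0.29 (95% interval -0.31 to 0.96, adjusted p = 0.981, edgeR), and 0.76 without that library, still not called. Over the 23 libraries Slc38a1 followed the summed level of 4 ependymal markers (Foxj1, Ccdc153, Tmem212 and Dynlrb2), with a Pearson's r of 0.93 and a Spearman's rho of 0.93, given as a description of libraries that share their scaling. The ependymal sum was 525 CPM in ConAstro replicate 3 and 174 to 200 CPM in the other ConAstro libraries, and ran from 194 to 493 CPM in cKOAstro. The part of these markers in the Slc38a1 values was not tested. Of the 9 marker lists, the next largest r of Slc38a1 in size was -0.45, with endothelial markers.

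**Figure D3:**
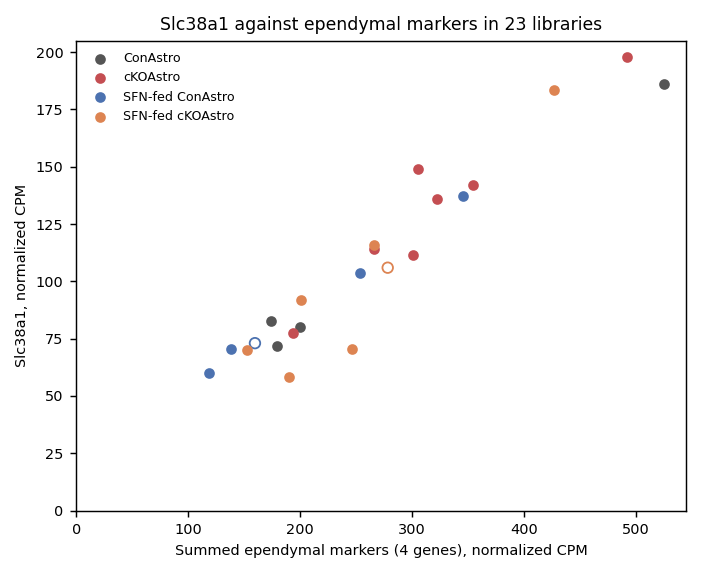
Slc38a1 (vertical axis, normalized CPM) against the summed normalized CPM of 4 ependymal markers (horizontal axis), 1 point per library, coloured by group. The 3 libraries with the highest Slc38a1, from 184 to 198 CPM, also have the 3 highest ependymal sums, from 427 to 525 CPM.

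On the SFN diet the direction of Slc1a3 was as on the control diet, but it was not called by edgeR or, as labelled, by DESeq2 (adjusted p = 0.0689). Aldh7a1 itself was not called as labelled (adjusted p = 0.195, edgeR). Without the 2 libraries that went against their labels, Aldh7a1 was called (adjusted p = 3.55e-06, edgeR). The paper, which used DESeq2, reports Aldh7a1 and Slc1a3 as significantly different in this comparison. The SFN-fed ConAstro libraries had 2100, 4171, 5134, 5674 and 4316 CPM of Slc1a3, and the SFN-fed cKOAstro libraries ran from 1559 to 4436 CPM with a median of 2355. The 2100 CPM and the 4436 CPM belong to the 2 libraries that went against their labels, which alone make the groups overlap. As labelled the log2 fold change was -0.78 ± 0.26 (95% interval -1.35 to -0.20, adjusted p = 0.195, edgeR), and no gene was called (0% of 16672 tested, with 3377 at an unadjusted p under 0.05, 341 called by DESeq2, and 701 called by edgeR without SFN-fed cKOAstro replicate 3). Without the 2 libraries the log2 fold change of Slc1a3 was -1.14 ± 0.17 (95% interval -1.51 to -0.78, unadjusted p = 2.59e-05, adjusted p = 0.144, edgeR). The groups then did not overlap, as for 4.81% of the 16705 genes tested, and 0.012% of these genes were called.

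Glul and Slc1a2 lay on opposite sides of 0 between the genotypes on the SFN diet, without passing the test. Glul was at 7701, 6304, 7769, 8171 and 6665 CPM in SFN-fed ConAstro and at 7878 to 10178 CPM (median 8535) in SFN-fed cKOAstro. Among the SFN-fed cKOAstro libraries 5 of 7 stood above the highest SFN-fed ConAstro library, the highest of them being replicate 2, which went against its label, and the other two lay inside the SFN-fed ConAstro range. Microglial markers summed to 721 to 2266 CPM (median 1497) in SFN-fed ConAstro and to 240 to 2628 CPM (median 441) in SFN-fed cKOAstro. Among the latter the sum was 441, 240 and 253 CPM in libraries with Astro names and 273 CPM in replicate 2. It was 2441, 781 and 2628 CPM in replicates 1, 3 and 7. SFN-fed ConAstro replicate 1, also with an Astro name, had 2266 CPM. The part of these markers in the Glul values was not tested. The log2 fold change of Glul was 0.23 ± 0.11 (95% interval -0.00068 to 0.47, unadjusted p = 0.0506, adjusted p = 0.248, edgeR). It was 0.21 ± 0.12 without the 2 libraries (95% interval -0.061 to 0.48, adjusted p = 0.413, edgeR). An unadjusted p under 0.05 was reached by 20.3% of all genes in this comparison. Slc1a2 had a log2 fold change of -0.33 ± 0.19 (95% interval -0.74 to 0.082), and of -0.40 ± 0.22 without the 2 libraries. In SFN-fed cKOAstro replicate 4, which held the lowest Slc1a2 of the series (6005 CPM), Slc1a3 (1559 CPM) and Slc1a1 (4.48 CPM), the oligodendrocyte sum was the highest of the series, at 52949 CPM, and the astrocyte sum the lowest, at 8032 CPM. The part of these markers in the values was not tested. Without that library the log2 fold changes of Slc1a2 and Slc1a3 kept their sign.

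Over both diets, with 1 genotype term fitted beside a diet term, the call for Slc1a3 depended on the libraries and the tool. As labelled the log2 fold change was -0.88 ± 0.16 (adjusted p = 0.0895, edgeR), with 0% of 17302 genes called by edgeR, 3572 at an unadjusted p under 0.05 and 66 called by DESeq2, among them Slc1a3 (adjusted p = 0.000172). Without the 2 libraries Slc1a3 fell by 1.08 ± 0.099 (95% interval -1.28 to -0.87, adjusted p = 2.34e-06, edgeR), 1 of 8 members beside 0.029% of 17264 genes (5 genes). Leaving out single libraries also brought the call, for SFN-fed ConAstro replicate 1 (adjusted p = 0.00207), SFN-fed cKOAstro replicate 2 (0.00106) and SFN-fed cKOAstro replicate 3 (0.0224). No other member was called in either set of libraries. Without the 2 libraries Slc1a2 had a log2 fold change of -0.27 ± 0.13 (95% interval -0.53 to -0.0061, adjusted p = 0.32), Slc1a4 of -0.18 ± 0.085 (adjusted p = 0.324) and Slc38a3 of -0.18 ± 0.07 (adjusted p = 0.297), all by edgeR. An unadjusted p under 0.05 with a lower level in cKOAstro was reached by these 3 and Slc1a3, 4 of 8 members, beside 8.03% of all genes. As labelled, 2 of 8 members (Slc1a3 and Slc38a3) reached it, beside 9.96% of all genes. Without the 2 libraries Glul stood at 0.083 ± 0.084 (95% interval -0.092 to 0.26). For this average over diets, levels above 1.20 times those of ConAstro lay outside the interval. On the SFN diet alone, without the 2 libraries, the interval of Glul reached 1.40 times. Over both diets Glud1 was at 0.0073, with an interval from -0.18 to 0.19. For Slc1a1 the interval was wider, from -0.55 to 0.21, and for Slc38a1 from -0.27 to 0.69.

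**Figure D4:**
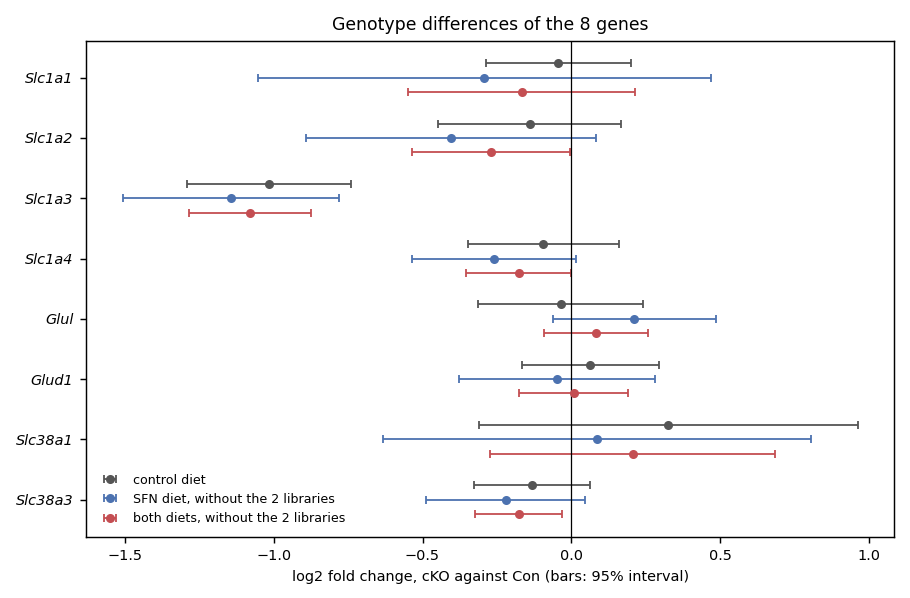
Log2 fold change of cKOAstro against ConAstro for each gene (horizontal axis, points) with its 95% interval (bars), on the control diet and, without the 2 libraries that went against their labels, on the SFN diet and over both diets. For Slc1a3 all 3 intervals lie below -0.74, and no gene has an interval wholly above 0.

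The balance of the transporters differed between the genotypes on the control diet, and since it rests on the Slc1a3 difference above it is given as a description. Summed per kilobase over Slc1a1, Slc1a2 and Slc1a3, transporter RNA was at 1412 ± 163 CPM per kilobase in ConAstro (SD, n = 4) and 1067 ± 184 in cKOAstro (SD, n = 7), with ranges of 1195 to 1547 and 840 to 1387 that overlapped. Slc1a3 made up 37.6% ± 0.93 of that sum in ConAstro (36.9% to 38.9%) and 24.7% ± 0.81 in cKOAstro (23.9% to 25.9%). On the SFN diet and without the 2 libraries, the share was 38.1% ± 1.04 among 4 SFN-fed ConAstro libraries and 27.3% ± 2.66 among 6 SFN-fed cKOAstro libraries. The libraries left out had shares of 25.8% (labelled SFN-fed ConAstro replicate 1) and 41.8% (labelled SFN-fed cKOAstro replicate 2). With them included the shares averaged 35.6% ± 5.56 (n = 5) and 29.3% ± 6.02 (n = 7). Slc1a2 and Slc1a3 moved together among libraries of 1 group, with an r of 0.92 over 21 libraries after the group means were removed. With the group means kept, the r was 0.71 over these 21 libraries and 0.68 over all 23. SFN-fed cKOAstro replicate 1 had the largest share among the other SFN-fed cKOAstro libraries, at 31.5%.

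**Figure D5:**
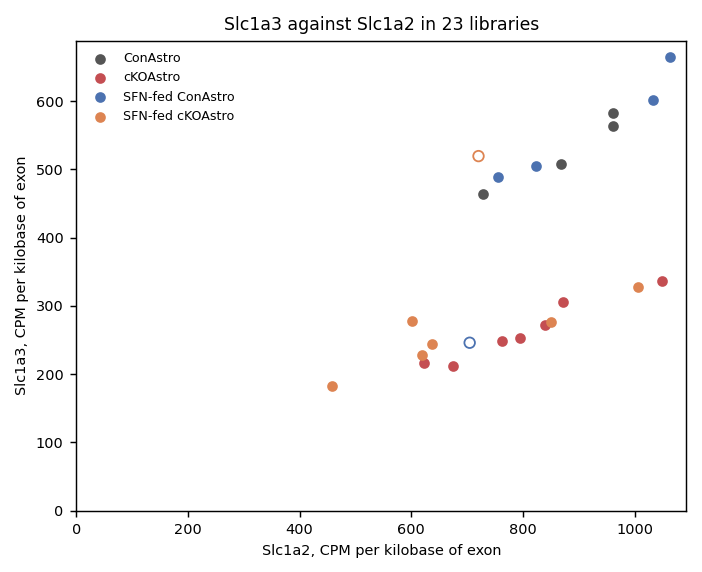
Slc1a3 (vertical axis) against Slc1a2 (horizontal axis), both in CPM per kilobase of exon, 1 point per library, coloured by group, with open circles for the 2 libraries that went against their labels. ConAstro and cKOAstro libraries fall on separate lines, with Slc1a2 at 1.66 ± 0.065 and 3.05 ± 0.13 times Slc1a3, and each open circle lies with the other genotype.

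The SFN diet changed none of the 8 genes in either genotype by the adjusted test. Among ConAstro libraries 0% of 16509 genes were called by edgeR, with 1079 (6.54%) at an unadjusted p under 0.05 and 23 called by DESeq2. Slc1a1 had the largest difference, from 11.3, 10.2, 10.5 and 12.9 CPM on the control diet to 11.7, 15.7, 10.9, 19.4 and 16.5 CPM on the SFN diet. The SFN-fed libraries spread more widely and their lower members lay within the control range. Its log2 fold change was 0.40 ± 0.17 (95% interval 0.015 to 0.78, unadjusted p = 0.0432, adjusted p = 0.762, edgeR), and 0.47 ± 0.17 without the 2 libraries (adjusted p = 0.583). Over the 23 libraries Slc1a1 had an r of 0.64 with fibroblast markers, 0.63 with neuron markers and 0.53 with endothelial markers (Spearman's rho 0.41, 0.51 and 0.42). SFN-fed cKOAstro replicate 4, outside this comparison, had the lowest Slc1a1 (4.48 CPM), fibroblast sum (67.6 CPM) and neuron sum (99.3 CPM) of the series. Fibroblast markers summed to 99.7 to 107.1 CPM in ConAstro and to 107.4 to 148.9 CPM in SFN-fed ConAstro. The 107.4 CPM belonged to SFN-fed ConAstro replicate 1, which went against its label. Neuron markers summed to 177 to 494 CPM and 220 to 534 CPM, and endothelial markers to 189 to 509 CPM and 413 to 662 CPM, in the same groups. The part of these markers in the Slc1a1 values was not tested. The log2 fold change of Glul was -0.10 ± 0.11 as labelled and -0.12 ± 0.12 without the 2 libraries, and that of Slc1a2 was -0.013 ± 0.16 and 0.052 ± 0.16.

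Among cKOAstro libraries 0% of 16903 genes were called by edgeR, with 1839 at an unadjusted p under 0.05 and 10 called by DESeq2. Slc38a1 was at 99.5 ± 42.5 CPM on the SFN diet (n = 7) against 133 ± 37.6 CPM on the control diet (n = 7), a log2 fold change of -0.41 ± 0.24 (95% interval -0.93 to 0.10), and of -0.43 ± 0.26 without the 2 libraries. The ependymal sum had a median of 247 CPM on the SFN diet and 306 CPM on the control diet. Glul had a log2 fold change of 0.17 ± 0.11 (95% interval -0.068 to 0.41), and of 0.13 ± 0.12 without the 2 libraries. For Slc1a3 it was 0.16 ± 0.19 as labelled and -0.040 ± 0.14 once SFN-fed cKOAstro replicate 2, which went against its label, was left out.

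Whether the diet altered the genotype difference was tested as an interaction over all 4 groups. None of the 8 genes passed, and 0% of 17302 genes were called by edgeR, with 1267 at an unadjusted p under 0.05 and 3 called by DESeq2. As labelled the largest interaction was that of Glul, at 0.27 ± 0.16 on the log2 scale (95% interval -0.069 to 0.60, adjusted p = 0.704). Without the 2 libraries it was that of Slc1a2, at -0.26 ± 0.26, with Glul at 0.25 ± 0.16. For Slc1a3 the interaction was 0.24 ± 0.32 as labelled and -0.13 ± 0.20 without the 2 libraries, so its sign depended on them.

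A further 33 genes of the pathway were listed, covering other plasma membrane transporters, cystine-glutamate exchange, other glutamine carriers, enzymes, mitochondrial carriers, vesicular transporters, glutamate decarboxylases and proteins that bind the transporters. None was called in any of the 6 comparisons. On the control diet all 33 were tested, 21 lay above 0 and 12 below, and the median log2 fold change was 0.033. Ajuba, which encodes a scaffold protein that binds GLT-1, had a log2 fold change of 0.28 ± 0.098 (unadjusted p = 0.0148, adjusted p = 0.981, edgeR). Gad1, a glutamate decarboxylase of inhibitory neurons, was at 0.54 ± 0.29. On the SFN diet as labelled, 4 of 32 had an unadjusted p under 0.05 and were higher (11.4% of all genes), and 1 was lower (8.89% of all genes). Gpt2, a mitochondrial alanine aminotransferase, was among them, at 0.82 ± 0.27 (adjusted p = 0.195, edgeR), and stood at 0.79 ± 0.30 without the 2 libraries. With the SFN diet in ConAstro Gpt2 was at -0.41 ± 0.20, and at -0.48 ± 0.21 without the 2 libraries, and over both diets its genotype difference was 0.47 ± 0.22 and 0.41 ± 0.24. Slc38a5, another glutamine carrier, was at -0.96 ± 0.61 for genotype on the SFN diet and at 0.72 ± 0.38 for the diet in ConAstro, and at -0.59 ± 0.67 and 0.50 ± 0.37 without the 2 libraries. For genotype on the SFN diet without the 2 libraries, 1 was higher (9.01% of all genes) and 0 were lower (5.92% of all genes) at that level. Slc7a11, the cystine-glutamate exchanger and a known target of NRF2, had a log2 fold change of 0.052 ± 0.13 with the SFN diet in ConAstro (adjusted p = 0.947) and of -0.15 ± 0.18 in cKOAstro (adjusted p = 0.774), by edgeR. Without the 2 libraries these were 0.13 ± 0.11 and -0.13 ± 0.19. In the diet comparison in cKOAstro, Ajuba stood at -0.47 ± 0.15 (adjusted p = 0.459), Gpt at 0.27 ± 0.10 (adjusted p = 0.459) and Slc38a2, a glutamine carrier, at 0.48 ± 0.25 (adjusted p = 0.484), and at -0.41 ± 0.15, 0.24 ± 0.10 and 0.43 ± 0.27 in that order without the 2 libraries. Slc25a13, a mitochondrial aspartate-glutamate carrier, was at 0.50 ± 0.31 there and at 0.43 ± 0.32 without the 2 libraries, and its genotype difference over both diets was 0.49 ± 0.21 (unadjusted p = 0.0296, adjusted p = 0.206, edgeR) and 0.44 ± 0.23. The interaction of Ajuba was -0.67 ± 0.23 (unadjusted p = 0.00709, adjusted p = 0.673, edgeR), and -0.68 ± 0.22 without the 2 libraries. The largest values belonged to Slc1a7 and Slc17a8, which were barely detected. Slc1a7 did not exceed 0.107 CPM in any library, and its log2 fold change on the control diet was 1.60 ± 0.87. Slc17a8, a vesicular glutamate transporter, was at 3.46 CPM in 1 SFN-fed ConAstro library and at most at 1.04 CPM in cKOAstro, and its log2 fold change with the SFN diet in ConAstro was 2.92 ± 1.18 (adjusted p = 0.762). Without the 2 libraries it did not pass the filter on low counts in that comparison, and the largest value of any of the 33 genes there was 0.69. Its genotype difference on the SFN diet was -2.07 ± 0.87 as labelled and -0.47 ± 0.77 without the 2 libraries.

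Among the 8 genes, Slc1a4 and Slc38a3 had the most alike profiles over 23 libraries, with an r of 0.92. Within groups, over 21 libraries, their r was 0.918, below those of Slc1a3 with Glud1 (0.932) and Slc1a2 with Slc1a3 (0.924). Glud1 followed the astrocyte marker sum (r = 0.88, Spearman's rho 0.90). Slc1a2 followed the astrocyte sum (r = 0.79, rho 0.77) and the sum of mural cell markers (r = 0.73, rho 0.69). It was lower where the oligodendrocyte sum was higher (r = -0.65, rho -0.45). SFN-fed cKOAstro replicate 4 had both the highest oligodendrocyte sum (52949 CPM) and the lowest Slc1a2 (6005 CPM). Glul was higher where the astrocyte sum was higher (r = 0.60, rho 0.53). It was lower where microglial markers (r = -0.59, rho -0.56) or oligodendrocyte precursor markers (r = -0.50, rho -0.47) were higher. Of all genes, the closest to Slc1a3 were Aldh7a1 (r = 0.91, Spearman's rho 0.70) and the cell adhesion gene Cntn1 (r = 0.80, rho 0.83). Aldh7a1 and Slc1a3 were both lower in cKOAstro, so their r over both genotypes includes that difference. Acsl6, which activates fatty acids, was among the genes closest to Slc1a2 (r = 0.97). The closest to Glul were Pgm2 (r = 0.90) and Cth (r = 0.90), the latter an enzyme of cysteine synthesis. Etv5 was closest to Slc1a4 (r = 0.97), Atl2 to Slc38a3 (r = 0.93), Fam163a to Glud1 (r = 0.92), Adamtsl2 to Slc1a1 (r = 0.88) and Ankrd42 to Slc38a1 (r = 0.97). These values, over 23 libraries that share composition and scaling, are descriptions and carry no test.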

How the data were processed

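Polyadenylated RNA of bead-isolated cortical astrocytes was sequenced in paired ends. The authors aligned reads with STAR to mm10 and deposited raw counts per gene symbol, 1 column per library and not pooled. The STAR version, the annotation and the strand setting are not given in the sources used here. Libraries were grouped by title. Counts were tested with edgeR 4.0.16 (limma 3.58.1, R 4.3.3), using its quasi-likelihood test, trimmed mean of M values (TMM) normalization and filterByExpr (minimum count 10, minimum total 15). Pairs of groups were fitted alone, and the interaction and the average over diets on all 4 groups. P-values were adjusted over all genes tested by Benjamini-Hochberg, with a threshold of 0.05. CPM were scaled by TMM over all 23 libraries. Scripts were tested on simulated data. Members, pathway genes and markers were chosen with earlier results of these data known. Genes of the pathway were named if they had 1 of the 2 largest changes or 1 of the 2 smallest p-values in a comparison, Slc7a11 being added after its values were seen. The 2 most correlated genes were found for each member, and not all of them are reported here. Alternatives were DESeq2 1.42.0, other scaling, no filter, a replicate block, subsets of libraries and leaving out each library.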

Additional observations from a re-analysis of the deposited data

Results flagged for a closer look

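In SFN-fed cKOAstro replicate 2, a library that went against its label, Slc1a3 (4436 CPM) and Glul (10178 CPM) stood far above the other libraries of the group. It also had the Aldh7a1 level of the other genotype. In ConAstro replicate 3, Slc38a1 was at 186 CPM, far above the other ConAstro libraries. These were 3 of 32 combinations of gene and group, where chance marks about 1 in 20.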

How the results depend on the processing

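The log2 fold change of Slc1a3 was below 0 in every genotype comparison under every alternative run, while the call depended on the libraries and the tool. Of the alternatives, 979 member values kept their direction and side of the threshold, 55 turned in sign, 8 lost and 6 gained the call. No value that turned was called. The cause of each was not tested.

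Under DESeq2 8 genes were called on the control diet (among them Slc1a3, adjusted p = 1.27e-10 by DESeq2), 341 for genotype on the SFN diet, 23 for diet in ConAstro, 10 for diet in cKOAstro, 3 for the interaction and 66 over both diets, where 1 member (Slc1a3, adjusted p = 0.000172 by DESeq2) was called. The replicate numbers did not pair the libraries (correlations of same-numbered libraries -0.21 to 0.37). With a replicate block 0 members and 1 gene were called on the control diet (Slc1a3 -1.05, adjusted p = 0.923, edgeR), and the block turned Slc1a1 to 0.0255 and Glul to 0.0237 in the genotype effect on the control diet, Slc38a3 to 0.0199 in the interaction. With numbered libraries only, 0 members were called on the control diet and 1 gene over both diets, and this turned Glud1 to 0.0940 and Slc38a1 to -0.15 in the genotype effect on the SFN diet, Slc1a2 to 0.0518, Slc1a3 to 0.0829 and Slc38a3 to 0.00434 in the diet effect in ConAstro, Slc1a4 to 0.0299 and Glud1 to 0.0927 in the diet effect in cKOAstro, Glud1 to 0.0138 in the interaction. An alternative chosen after seeing the data also left out the library labelled SFN-fed cKOAstro replicate 2. It called 2 genes for genotype on the SFN diet, 4 for diet in cKOAstro and 4 over both diets, 1 of them a member (Slc1a3), and turned Glud1 to 0.14 and Slc38a1 to -0.28 in the genotype effect on the SFN diet, Slc1a2 to 0.0221, Slc1a4 to 0.0876, Glud1 to 0.15 and Slc38a3 to 0.0489 in the diet effect in cKOAstro, Glud1 to 0.0753 and Slc38a3 to 0.0433 in the interaction. Without both libraries that went against their labels 2 genes were called for genotype on the SFN diet and 5 over both diets, 1 of them a member (Slc1a3), and this turned Slc1a2 to 0.0518, Slc1a3 to 0.0829 and Slc38a3 to 0.00434 in the diet effect in ConAstro, Slc1a3 to -0.0400 in the diet effect in cKOAstro, Slc1a3 to -0.13 in the interaction.

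Leaving out each library in turn gave 0 to 1 called members and 2 to 4 called genes on the control diet. For genotype on the SFN diet it gave 0 called members and 0 to 701 called genes, the most without SFN-fed cKOAstro replicate 3. For genotype over both diets it gave 0 to 1 called members and 0 to 215 called genes, the most without the same library. For diet in ConAstro it gave 0 to 1 called genes, and 0 for diet in cKOAstro and for the interaction. Members whose sign turned ranged as follows: in the genotype effect on the control diet Slc1a1 from -0.12 to 0.0343 and Glul from -0.0874 to 0.0135, in the genotype effect on the SFN diet Glud1 from -0.0901 to 0.0358 and Slc38a1 from -0.0568 to 0.37, in the diet effect in ConAstro Slc1a2 from -0.0974 to 0.0518, Slc1a3 from -0.21 to 0.0829, Slc1a4 from -0.0383 to 0.13, Glud1 from -0.00375 to 0.11, Slc38a1 from -0.46 to 0.17 and Slc38a3 from -0.10 to 0.0190, in the diet effect in cKOAstro Slc1a3 from -0.0400 to 0.25 and Glud1 from -0.0781 to 0.0374, in the interaction Slc38a1 from -0.62 to 0.0394, in the genotype effect over both diets Glud1 from -0.0130 to 0.0487.

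Each member had at least 452 counts in every library, and the effect of depth on the calls was not tested.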
